A study of Mus musculus with 12 samples.

Results

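The livers described here came from mice that lacked their own apolipoprotein A-I and apolipoprotein E genes (Apoa1-/- Apoe-/-, double knockout or DKO) and expressed human APOA1 (DKO/hA1). The comparison set 3 livers of mice on a high-fat Western diet against 2 livers of mice on standard chow, each after 22 weeks, 5 of the 12 libraries of the series. All 5 mice share the double knockout, so the controls carry it too. The other 7 libraries came from DKO mice without the transgene, 4 on chow and 3 on Western diet. The labels name no promoter, copy number or line for the transgene and give neither age nor sex, and they do not say whether each library is a separate mouse, so p-values measure the spread between these libraries. Expression was read as FPKM, fragment numbers corrected for transcript length and library size. Genes were kept at 1 FPKM or more in at least 2 of the 5 libraries, leaving out genes at exactly 0 throughout either group and small RNA genes. This left 11141 of the 23284 genes in the table.

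Cholesterol that arrives from the diet shuts down its own manufacture: SREBP2, the membrane-bound transcription factor that drives the mevalonate pathway, stays in the endoplasmic reticulum when sterols are plentiful, while oxysterols activate LXR, which turns on sterol export. Apolipoprotein A-I is the scaffold of high-density lipoprotein, which accepts cholesterol from cells, and apolipoprotein E lets the liver clear lipoprotein remnants. Kupffer cells, the resident macrophages of the liver sinusoid, clear particles and dying cells, and lipid-laden tissue macrophages switch on a lysosomal and phagocytic programme that includes Trem2 and Gpnmb.

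The 5 libraries were alike in broad terms. Their FPKM summed to 379689 to 482824, 10578 to 11005 genes reached 1 FPKM, and correlations of log2 levels were 0.983 between the chow libraries, 0.946 to 0.98 among the Western diet libraries and 0.931 to 0.969 between diets. In Western diet replicate 3 the top 10 genes made up 26.9% of all FPKM, against 12.3 to 15.5% in the other libraries. Read numbers are not used here. The steps in low values placed depth between 0.889 and 1.17 of chow replicate 1, but only 10.7 to 18.1% of low values in the other 4 libraries lay near a whole step, so that estimate is loose. Apoa1 (chromosome 9, 46228630 to 46230469, mm10) stood at 217 and 236 FPKM on chow and at 206, 239.8 and 122 FPKM on Western diet. The log2 difference was -0.32 ± 0.31 (SE; limma adjusted p = 0.718) and the diets overlapped. The table has no human APOA1 row and cannot tell human from mouse transcripts. Apoe was at 40.1 and 12.9 FPKM on chow and at 53.2, 50.2 and 32.8 FPKM on Western diet, so signal at the knocked-out gene was above 0. Hepatocyte genes were abundant: Ahsg, which encodes fetuin-A, was at 4321 and 4961 FPKM on chow and at 3130, 3183 and 4615 FPKM on Western diet. Alb, the defining albumin gene, was listed at 0 in all 5, as a failed estimate would be, and was not tested.

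Western diet was accompanied by higher levels of macrophage markers and Fc receptor genes and by lower levels of some cholesterol synthesis enzymes. In a 4-group limma fit over all 12 libraries, 168 genes passed at a Benjamini-Hochberg adjusted p below 0.05, 1.51% of those tested. Of these, 127 were higher on Western diet (1.14%) and 41 lower (0.368%), and 132 changed at least 2-fold, 105 upward and 27 downward. At an unadjusted p below 0.05 there were 1552. The median log2 difference of all tested genes was -0.01. In all 168 the 2 chow libraries did not overlap the 3 Western diet libraries, an arrangement that 15.7% of tested genes showed with Western diet higher and 14.9% with Western diet lower. The number called rested on single libraries. Without chow replicate 2, which leaves 1 chow library that is then assumed to vary like the other groups, 7 genes passed, against 120 without chow replicate 1. Without Western diet replicate 2 there were 27, without its replicate 3 there were 97 and without its replicate 1 there were 201. In the fit that used only the 5 DKO/hA1 libraries 13 genes passed. Both chow libraries share the first number of their label codes, 57, whose meaning is not given. DKO chow replicate 3 carries 57 too, and Western diet replicate 1 of each genotype carries 41. With the first number as a random block (estimated correlation 0.561) 19 genes passed. All 168 kept their direction under every one of the 23 settings tried. None of them overlapped between diets, so leaving out a library could hardly reverse a direction, and this adds no support to the calls.

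**Figure D1:**
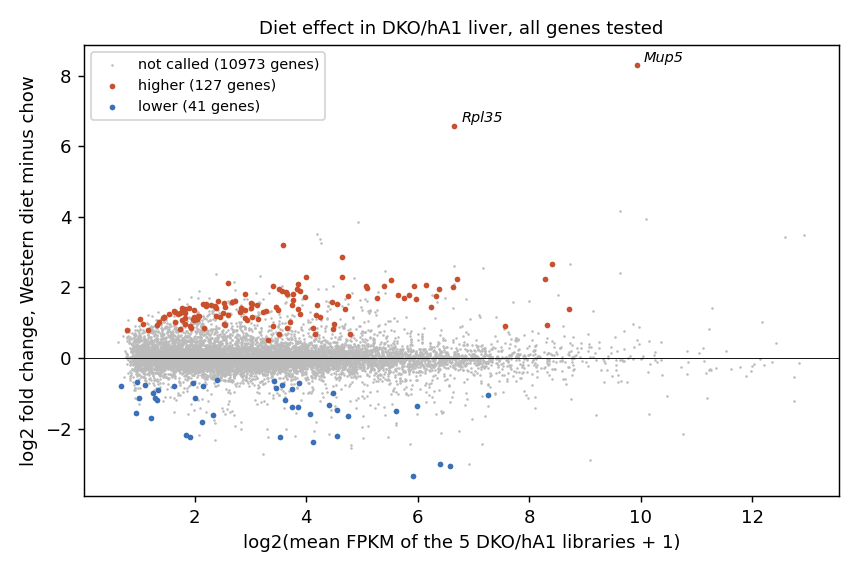
Log2 fold change (Western diet minus chow, vertical axis) of each of the 11141 tested genes against the log2 of its mean FPKM plus 1 over the 5 DKO/hA1 libraries (horizontal axis). The 127 genes called higher are red and the 41 called lower are blue. Called genes occur from low to high levels, and Mup5 and Rpl35 stand far above the rest.

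The 15 largest rises and the 15 largest falls among called genes were taken at a mean of 5 FPKM or more in the higher group. Of the 15 rises, 9 belonged to the macrophage, phagosome or Fc receptor lists, and of the 15 falls 4 belonged to the cholesterol synthesis lists. These lists hold 74 and 21 of the 11141 tested genes and were chosen with earlier results of these data known. Of all 127 genes called higher, 22 were in the former lists and 35 in any list. Of all 41 called lower, 5 were in the latter lists and 10 in any list. The members of the rises were Cd207, Ccl6, Cd5l, Fcgr4, Lgals3, C1qb, Lyz2, Vsig4, Ear2, Tyrobp, Pla2g7, Folr2, Cfp, Saa3 and C1qc. The members of the falls were Idi1, Hmgcs1, Csad, Raet1e, Gpr110, Ugt1a9, Cyp2c55, Prss8, Fdft1, Slco2a1, Tm7sf2, Tstd1, Abca8b, Ugdh and Gas2. Chow replicate 2 was below chow replicate 1 in 13 of the 15 rises, and Western diet replicate 3 was the highest library in 12 of them.

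**Figure D2:**
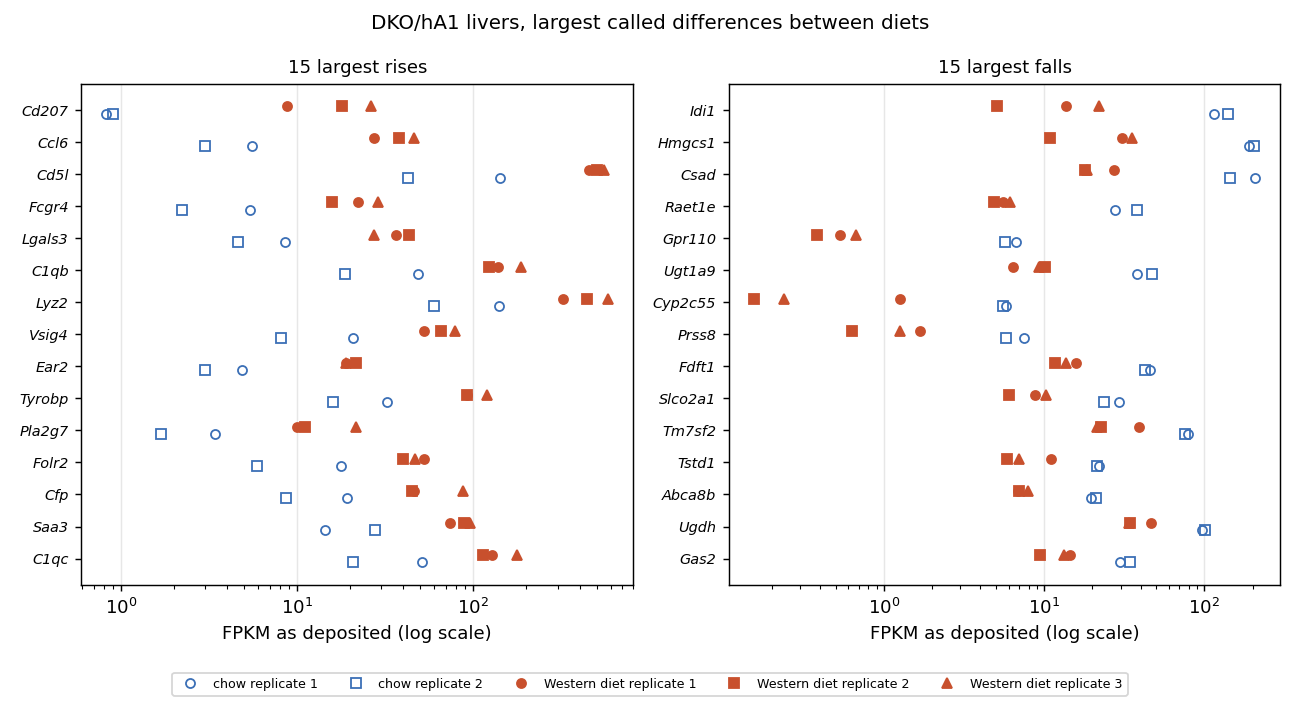
FPKM as deposited (horizontal axis, log scale) of the 15 largest called rises (left) and the 15 largest called falls (right), with 1 symbol per library: open blue for the 2 chow libraries, filled red for the 3 Western diet libraries. No gene shown has overlapping diets. The 2 chow libraries lie apart for most of the genes that rose and close together for most of the genes that fell.

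Enzymes of cholesterol synthesis made up the clearest group among the genes that fell. Over both arms of the pathway, 5 of 21 tested genes were called lower (0.368% of all tested genes were) and 0 higher. In 20 of 21 (95.2%, against 14.9% of all tested genes) every Western diet library was below every chow library. Western diet replicate 2 was the lowest library in 18 of the 21. The summed level of the 21 genes was 1684 FPKM in each chow library and 744.5, 396.1 and 694 FPKM in Western diet replicates 1, 2 and 3. Under that code-number block, or with an index of clock genes as a term, 0 of the 21 were called. The fit of the 5 libraries alone called 1, equal totals as the scaling 9, and a block by the replicate number in the labels 2. No member passed without either chow library or without Western diet replicate 2 or 3, and 4 passed without replicate 1.

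In the mevalonate arm all 9 tested members were below chow in every Western diet library, with a median log2 difference of -1.96 against -0.01 over all genes, and 2 were called. Hmgcs1, the synthase that makes HMG-CoA (chromosome 13, 119690351 to 119708260), stood at 191 and 204 FPKM on chow and at 30.8, 10.9 and 35.6 FPKM on Western diet. Its log2 fold change was -3.05 ± 0.58 (adjusted p = 0.0336). Idi1, which interconverts the isoprenoid building blocks (chromosome 13, 8885606 to 8892396), stood at 114 and 141 FPKM on chow and at 13.7, 5.11 and 22 FPKM on Western diet (-3.34 ± 0.68, adjusted p = 0.0453). In both genes Western diet replicate 2 was the lowest library, and the chow libraries lay close to each other. Fdps, Mvd and Pmvk, which make and join the same building blocks, differed by -2.14 ± 0.70, -2.01 ± 0.71 and -1.96 ± 0.58 and were not called.

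In the squalene and post-squalene arm, 3 of 12 tested genes were called and the median difference was -1.64. Fdft1, which joins farnesyl units into squalene, fell from 46 and 42.6 FPKM to 15.9, 11.6 and 13.7 FPKM (-1.64 ± 0.35, adjusted p = 0.0477). Tm7sf2, a sterol reductase, was at 78.7 and 76 FPKM on chow and at 39.1, 22.7 and 21.5 FPKM on Western diet (-1.51 ± 0.31, adjusted p = 0.0381). Hsd17b7, a ketosteroid reductase of the same arm, fell by 1.18 ± 0.25 on the log2 scale (adjusted p = 0.0409). Larger differences in the same arm were not called, and their Western diet libraries were further apart. Cyp51, the lanosterol demethylase, was at 49.7 and 56 FPKM on chow and at 10.8, 3.4 and 14 FPKM on Western diet (-2.55 ± 0.61, adjusted p = 0.0707). Sqle, the squalene epoxidase, was at 49.9 and 48.4 FPKM and at 9.94, 1.67 and 24.9 FPKM (-2.47 ± 1.00).

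The promoters of Hmgcs1, Idi1 and Sc4mol are shown because these genes lay far below chow and hold the CCAAT box, the site of the NF-Y factor that works beside SREBP2 at sterol-regulated promoters. Each line gives the 250 bases before the RefSeq start in GRCm38.p6, 5′ to 3′ on the gene's strand, with matches in capitals: CCAAT or its reverse complement ATTGG, and in Hmgcs1 also the sterol regulatory element core CACNCCAC. Sc4mol, named Msmo1 in RefSeq, encodes a sterol methyl oxidase; it was at 78.1 and 89.7 FPKM on chow and at 26.9, 14.9 and 29.8 FPKM on Western diet (-1.83 ± 0.49, adjusted p = 0.0989). The stretches are chr13:119690101-119690350 (plus strand), chr13:8885356-8885605 (plus strand) and chr8:64733579-64733828 (minus strand).
Hmgcs1: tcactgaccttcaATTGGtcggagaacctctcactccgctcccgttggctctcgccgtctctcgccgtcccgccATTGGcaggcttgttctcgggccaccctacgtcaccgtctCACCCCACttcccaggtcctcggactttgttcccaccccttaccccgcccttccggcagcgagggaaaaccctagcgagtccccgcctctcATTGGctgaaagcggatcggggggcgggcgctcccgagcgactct
Idi1: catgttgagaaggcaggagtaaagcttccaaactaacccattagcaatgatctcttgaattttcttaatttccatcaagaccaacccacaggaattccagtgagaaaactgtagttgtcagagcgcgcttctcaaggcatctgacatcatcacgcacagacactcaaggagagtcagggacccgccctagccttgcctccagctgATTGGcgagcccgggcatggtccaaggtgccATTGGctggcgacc
Msmo1: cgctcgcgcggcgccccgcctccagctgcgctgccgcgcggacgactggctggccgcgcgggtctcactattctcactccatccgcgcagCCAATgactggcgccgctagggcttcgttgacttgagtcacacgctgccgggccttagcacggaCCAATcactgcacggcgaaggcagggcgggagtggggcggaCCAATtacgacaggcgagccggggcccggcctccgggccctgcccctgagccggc
The Hmgcs1 stretch holds 3 CCAAT matches and 1 sterol element core, 136 bases before the start. The Idi1 stretch holds 2 CCAAT matches, 45 and 14 bases before the start, and the Msmo1 stretch 3. Of the 21 tested genes, 16 had a RefSeq window of 300 bases (250 before to 50 after the start), and 15 of them (93.8%) held CCAAT on either strand. The share was 42.9% among the 8934 tested genes with a window and 37.4% among all 32851 windows. CACNCCAC was found in 2 of the 16, Hmgcs1 and Acat2 (12.5%), against 7.64% of tested genes and 6.24% of all windows. The motifs can share a base, and the matches printed here do not overlap. These matches describe the letters only.

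Genes around the pathway had no calls. Of 9 tested genes of SREBP2 control and LDL uptake, 0 were called by limma (5 at an unadjusted p below 0.05), with a median of -0.67. In every Western diet library 5 were below chow and 1 above (55.6% and 11.1%, against 14.9% and 15.7% of all tested genes). Insig1, the sterol sensor that holds SREBP2 back, was at 191 and 144 FPKM on chow and at 139, 31.8 and 63.2 FPKM on Western diet (-1.33 ± 0.54, adjusted p = 0.289). Stard4, a cholesterol carrier, differed by -1.0 ± 0.28 (adjusted p = 0.11). Mylip, an LXR target that encodes a ubiquitin ligase, was the member that lay above, at 4.97 and 2.09 against 7.38, 9.34 and 6.7 FPKM (1.02 ± 0.35).

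Among genes of LXR and sterol export, 3 of 15 were called higher (1.14% of all tested genes were). In 9 (60%, against 15.7% of all tested genes) every Western diet library was above chow, and the median was 0.45. None of the 15 was called under the code-number block, with the clock index or in the 5 libraries alone, and 1 was with equal totals. Pltp, the plasma phospholipid transfer protein, rose from 39.6 and 20.9 FPKM to 99.1, 113 and 138 FPKM (1.96 ± 0.39, adjusted p = 0.0375). Abcg1, which hands cholesterol to high-density lipoprotein, rose from 2.49 and 0.932 FPKM to 6.38, 8.13 and 5.81 FPKM (1.57 ± 0.28, adjusted p = 0.0263). Soat1, the cholesterol esterifying enzyme of macrophages, rose from 1.27 and 0.556 FPKM to 2.99, 3.52 and 4.3 FPKM (1.28 ± 0.19, adjusted p = 0.0138). Soat2, the esterifying enzyme of hepatocytes, was at 22 and 17.9 against 16.5, 12.1 and 8.14 FPKM, lower in every Western diet library and not called (-0.71 ± 0.28). Abcg5, which exports sterols into bile, was at 41 and 37.3 against 74.6, 90.2 and 45.8 FPKM (0.77 ± 0.31) and Srebf1, the lipogenic SREBP gene, overlapped between diets. Chow replicate 2 was below chow replicate 1 in all 15 genes of this list, and 0 of the 15 were called without chow replicate 2 or without Western diet replicate 2. Among 21 apolipoprotein and lipoprotein assembly genes 0 were called (2 at an unadjusted p below 0.05) and the median was -0.02, or 0.15 without Western diet replicate 3 and 0.09 without chow replicate 2. Apoa4, an apolipoprotein that follows dietary fat, was at 31 and 36 FPKM on chow and at 297, 119 and 233 FPKM on Western diet (2.55 ± 0.73, adjusted p = 0.12).

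Macrophage markers, of resident cells and of macrophages in general, were the group with the most calls. Of 24 tested Kupffer cell and macrophage markers, 11 were called higher (1.14% of all tested genes were) and 0 lower. All 24 had positive differences, and the median was 1.70. In 19 (79.2%, against 15.7% of all tested genes) every Western diet library was above chow. None of the 24 was called under the code-number block, with the clock index or in the 5 libraries alone. Cd5l, a secreted scavenger protein of Kupffer cells (chromosome 3, 87357881 to 87371074), was at 141 and 42.7 FPKM on chow and at 452, 503 and 551 FPKM on Western diet (2.66 ± 0.47, adjusted p = 0.0261). Lyz2, the lysozyme of myeloid cells, was at 140 and 60 FPKM on chow and at 323, 443 and 580 FPKM on Western diet (2.23 ± 0.42, adjusted p = 0.0317). Vsig4, the Kupffer cell complement receptor, was at 20.6 and 8.11 against 52.7, 65.3 and 78.3 FPKM (2.22 ± 0.46, adjusted p = 0.0446). In these 3 genes the lowest library was chow replicate 2 and the highest Western diet replicate 3, the same order of extremes as in most of the list. Chow replicate 2 was the lowest of the 5 libraries in 23 of 24 markers, and Western diet replicate 3 the highest Western diet library in 20.

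The 3 chains of C1q, the complement initiator that liver macrophages make, rose together. C1qa was at 45.9 and 20.9 FPKM on chow and at 94.7, 86.4 and 150 FPKM on Western diet, C1qb and C1qc rose by 2.24 ± 0.43 and 2.01 ± 0.43, and C1qa by 1.75 ± 0.34. Folr2, a folate receptor of resident macrophages, rose by 2.05 ± 0.41, Clec1b, a C-type lectin, by 1.58 ± 0.25, Cd68, a lysosomal glycoprotein of macrophages, by 1.99 ± 0.42 and Mpeg1, a pore-forming protein, by 1.46 ± 0.28. Clec4f, the mouse Kupffer cell lectin, was at 59.3 and 19.8 against 123, 81.9 and 120 FPKM (1.60 ± 0.41, adjusted p = 0.087). Emr1, the gene of F4/80, was at 9.77 and 3 FPKM on chow and at 15.8, 19.1 and 59.1 FPKM on Western diet (2.05 ± 0.57, adjusted p = 0.112). Cx3cr1, a receptor of monocytes, differed by 0.04 ± 0.20, and Ccr2, the receptor of recruited monocytes, by 0.88 ± 0.39. In whole liver, more cells of a type and more RNA per cell cannot be told apart.

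The spread of the chow libraries touched this group directly. The summed level of the 24 markers was 682.3 and 272.4 FPKM in chow replicates 1 and 2 and 1633, 1762 and 2561 FPKM in Western diet replicates 1, 2 and 3. The list median was 1.27 without chow replicate 2 and 2.34 without chow replicate 1, and the called members numbered 0 and 10. Without Western diet replicates 1, 2 and 3 they numbered 6, 0 and 2. Endothelial markers, of another cell type of the sinusoid, were also low in chow replicate 2: their summed level over 18 genes was 247.1 and 88.87 FPKM on chow and 169.6, 219.2 and 183.7 FPKM on Western diet, and all 18 were lower in chow replicate 2 than in replicate 1. No endothelial marker was called by limma or reached an unadjusted p below 0.05, and the list median was 0.25, -0.38 without chow replicate 2 and 0.86 without chow replicate 1. Among all tested genes 51.3% were lower in chow replicate 2 than in replicate 1, against 90.6% (115 of 127) of the genes called higher. In chow replicate 1 the sum of the macrophage markers was below that in each Western diet library, and that of the endothelial markers was above each. This reading rests on 1 chow library. What part the low levels of chow replicate 2 had in the calls was not tested.

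Receptors and adaptors that carry macrophage signals were also higher. Of 30 tested genes for Fc receptors, ITAM adaptors and the oxidase, 8 were called higher (1.14% of all tested genes were). In 29 (96.7%, against 15.7% of all tested genes) every Western diet library was above chow, and the median was 1.3. The called members numbered 0 under the code-number block, in the 5 libraries alone and without chow replicate 2. They numbered 1 with the clock index, 5 with the replicate block, 2 without Western diet replicate 2 and 4 without its replicate 3. Fcgr4, an activating receptor for IgG (chromosome 1, 171018926 to 171029761), was at 5.43 and 2.23 FPKM on chow and at 22.3, 15.7 and 28.8 FPKM on Western diet (2.31 ± 0.33, adjusted p = 0.0135). Tyrobp, the adaptor that pairs with Trem2 and other receptors, was at 32.4 and 16 FPKM on chow and at 91.5, 91.9 and 119 FPKM on Western diet (2.08 ± 0.39, adjusted p = 0.0302). Fcgr3, Fcgr1 and Cybb, the last of them a subunit of the phagocyte oxidase, rose by 1.95 ± 0.34, 1.61 ± 0.29 and 1.91 ± 0.37. Laptm5, Cd48 and Cd53, membrane proteins of leukocytes, rose by 1.69 ± 0.36, 1.61 ± 0.28 and 1.49 ± 0.24. Sfpi1, the gene of PU.1 that specifies myeloid cells, was also called (1.83, adjusted p = 0.0233, chosen after its values were seen), at 4.52 FPKM on average on chow and 17.8 FPKM on Western diet.

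The promoters of Fcgr4 and C1qc are shown because both genes rose and both hold the core GAGGAAGT, a PU.1 site, here as its reverse complement ACTTCCTC in capitals. Each line gives the 250 bases before the RefSeq start in GRCm38.p6, 5′ to 3′ on the gene's strand, at chr1:171018676-171018925 (plus strand) and chr4:136892915-136893164 (minus strand).
Fcgr4: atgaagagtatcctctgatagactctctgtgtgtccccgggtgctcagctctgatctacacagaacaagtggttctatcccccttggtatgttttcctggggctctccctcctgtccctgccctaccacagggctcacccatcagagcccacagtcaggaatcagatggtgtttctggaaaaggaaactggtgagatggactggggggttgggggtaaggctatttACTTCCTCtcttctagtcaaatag
C1qc: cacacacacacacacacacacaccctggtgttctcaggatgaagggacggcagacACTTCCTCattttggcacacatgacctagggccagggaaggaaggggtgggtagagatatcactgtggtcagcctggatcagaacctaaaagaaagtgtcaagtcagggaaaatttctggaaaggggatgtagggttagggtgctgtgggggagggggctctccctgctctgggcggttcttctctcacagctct
The core lies 24 bases before the start of Fcgr4 and 195 bases before that of C1qc. Among the 127 genes called higher, 99 had a window of 300 bases and 15 of these (15.2%) held the core on either strand. It was found in 3.77% of tested genes with a window and in 3.2% of all windows, and in 1 of the 35 genes called lower that had a window (2.86%). The motif was searched after the calls were known, and a match is a description of the letters.

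Of 22 tested genes of lipid-associated macrophages and the phagosome, 5 were called higher (1.14% of all tested genes were). In 13 (59.1%, against 15.7% of all tested genes) every Western diet library was above chow, and the list median was 0.76. None was called under the code-number block, with the clock index, in the 5 libraries alone, or without chow replicate 2 or Western diet replicate 2, and 3 were with equal totals or the replicate block. Western diet replicates 1, 2 and 3 were the highest of the 3 in 4, 9 and 9 members. Lgals3, the galectin-3 gene of phagocytes (chromosome 14, 47373860 to 47386167), was at 8.58 and 4.59 FPKM on chow and at 36.3, 43 and 27.2 FPKM on Western diet (2.29 ± 0.33, adjusted p = 0.0138). Trem2, the lipid receptor that defines these cells, was at 5.55 and 2.72 FPKM on chow and at 19.5, 25.2 and 8.08 FPKM on Western diet (1.78 ± 0.49, adjusted p = 0.104). Gpnmb, a glycoprotein of lipid-loaded phagocytes, was at 2.35 and 0.197 against 20, 62.2 and 5.65 FPKM (3.36 ± 1.02, adjusted p = 0.146). Both genes were highest in Western diet replicates 1 and 2 and lowest of the 3 in replicate 3. Clec7a, the dectin-1 gene, followed the same order at 15.3, 23.5 and 9.29 FPKM, and Mmp12, the macrophage elastase, at 4.6, 11.2 and 1.22 FPKM, the last of which lay within the chow range.

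Other myeloid genes were highest in Western diet replicate 3. Marco, a scavenger receptor, was at 16.5 and 2.42 FPKM on chow and at 28.3, 17.7 and 142 FPKM on Western diet (2.46 ± 0.96, adjusted p = 0.274). Timd4, a receptor for dying cells, was at 4 and 1.4 FPKM on chow and at 9.24, 6.8 and 23.8 FPKM on Western diet (1.85 ± 0.48, adjusted p = 0.0865). Spp1, the osteopontin gene, was at 38.5 and 47.8 against 37.3, 40.2 and 152 FPKM. It is also in the list of cholangiocyte (bile duct cell) markers, so its level cannot be assigned to myeloid cells here. The neutrophil granule gene S100a8 was at 11.9 and 10.5 FPKM on chow and at 7.32, 38.5 and 426 FPKM on Western diet, and all 9 tested neutrophil markers were highest in replicate 3. Their summed level was 39.6 and 76.3 FPKM on chow and 108, 307.5 and 4477 FPKM on Western diet. Lcn2, which is also in the acute phase list, made up most of that sum in every library but chow replicate 1. It was at 9.34 and 52.8 FPKM on chow and at 89.7, 231 and 3574 FPKM on Western diet, so the sum does not measure neutrophils alone. The list median was 1.71 with all libraries and 0.38 without replicate 3, and 0 were called (2 at an unadjusted p below 0.05).

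**Figure D3:**
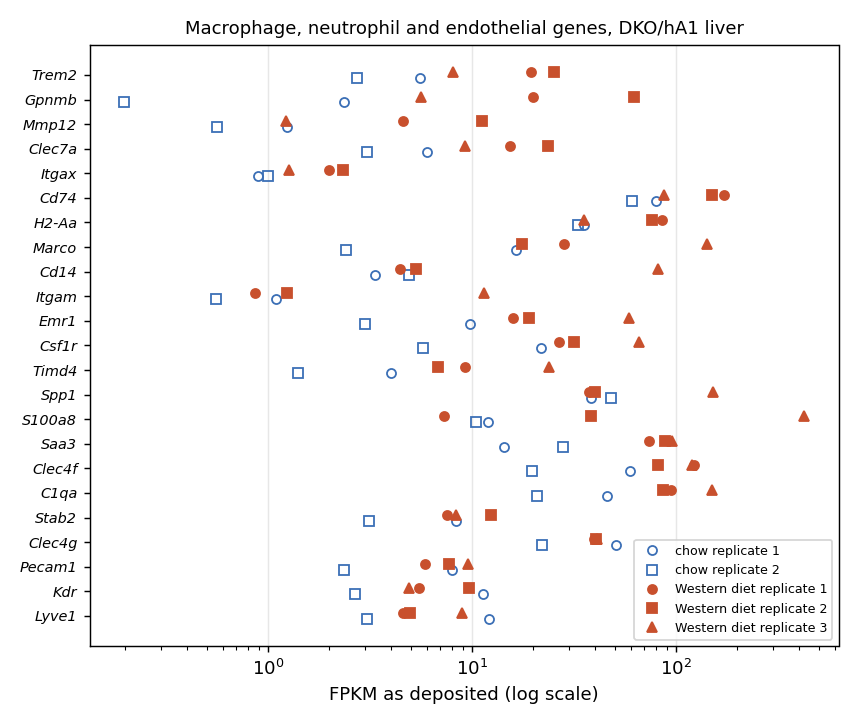
FPKM as deposited (horizontal axis, log scale) of macrophage, neutrophil and endothelial genes in the 2 chow (open blue) and 3 Western diet (filled red) libraries, 1 symbol per library. Trem2, Gpnmb, Mmp12 and Clec7a are highest in Western diet replicates 1 and 2, Marco and S100a8 in replicate 3, and most genes are lowest in chow replicate 2.

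Of 40 lysosomal genes 5 were called higher (1.14% of all tested genes were) and 0 lower. In 25 (62.5%, against 15.7% of all tested genes) every Western diet library was above chow, and the median was 0.31. None was called higher under the code-number block, with the clock index, in the 5 libraries alone, or without chow replicate 2 or Western diet replicate 2. Equal totals gave 1, and the replicate block or leaving out chow replicate 1 gave 2. Ctsd, the main aspartic protease of the lysosome, was at 231 and 181 FPKM on chow and at 405, 427 and 356 FPKM on Western diet (0.94 ± 0.18, adjusted p = 0.0319). Ctsb and Ctss, cysteine proteases, rose by 0.90 ± 0.16 and 1.67 ± 0.31. Gm2a, a lysosomal lipid-binding protein, lay lower in every Western diet library (-0.76 ± 0.17, adjusted p = 0.052). Lipa, the lysosomal lipase that frees cholesterol from its esters, differed by -0.02 ± 0.17.

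Ccl6, a CC chemokine of mouse myeloid cells (chromosome 11, 83587886 to 83593087), rose in all 3 Western diet livers. It was at 5.55 and 2.98 FPKM on chow and at 27.4, 38.1 and 46.1 FPKM on Western diet (2.87 ± 0.22, adjusted p = 0.000135), and it passed in all 23 settings. It was the only called gene of 23 chemokines and cytokines, whose median was 0.61. Of the 23, 11 were above chow in every Western diet library (47.8%, against 15.7% of all tested genes). Ccl9, another CC chemokine, lay the other way, at 21.1 and 22 FPKM on chow and at 9.07, 7.65 and 16.5 FPKM on Western diet (-0.98 ± 0.28, adjusted p = 0.117). Cxcl1, the neutrophil attractant, was at 15.2 and 12.1 against 36.2, 22.5 and 160 FPKM (1.82 ± 0.71). Cd207, the langerin gene of Langerhans and some dendritic cells (chromosome 6, 83671207 to 83677857), rose from 0.828 and 0.906 FPKM to 8.73, 18 and 26.4 FPKM (3.20 ± 0.51, adjusted p = 0.0201). Cd207 met the filter of 1 FPKM only through the Western diet libraries, where it was high. Its call was lost without either chow library, without Western diet replicate 2 and under the code-number block.

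Cd207 was the only call in the lists of antigen presentation and interferon genes. Of 14 tested genes of MHC class II and antigen presentation, 12 had positive differences and the median was 0.79. In 9 (64.3%, against 15.7% of all tested genes) every Western diet library was above chow. Cd74, the invariant chain, was at 79.6 and 61 FPKM on chow and at 172, 150 and 86.9 FPKM on Western diet (0.89 ± 0.49), and H2-Aa at 35.6 and 33.2 against 85.9, 76 and 35.4 FPKM (0.81 ± 0.58). Western diet replicate 3 lay near or within the chow range in both. Of 33 interferon response genes, 16 were above chow in every Western diet library (48.5%, against 15.7% of all tested genes), 0 were called (11 at an unadjusted p below 0.05), and the median was 0.43, or 0.25 without Western diet replicate 1, which was highest in 27 of the 33. Psmb9, a subunit of the immunoproteasome, was at 15.9 and 15.1 FPKM on chow and at 44, 23 and 23.3 FPKM on Western diet (0.84 ± 0.29).

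Secreted liver proteins of inflammation were spread. Among 26 complement genes 5 were called higher (1.14% of all tested genes were). They were the C1q chains, Cfp (2.04 ± 0.42), the properdin gene of leukocytes, and C3ar1 (1.26 ± 0.20), the receptor of the C3a fragment. The other members did not pass, 15 of 26 differences were positive, and 5 genes were above chow in every Western diet library (19.2%, against 15.7% of all tested genes). None was called under the code-number block, with the clock index, in the 5 libraries alone, or without chow replicate 2 or Western diet replicate 2, and 1 was without replicate 3. Of those made mainly by hepatocytes, Cfi and C8b were lower in every Western diet library (-0.59 ± 0.24 and -0.49 ± 0.24, not called), and the list median was 0.11, or 0.01 without Western diet replicate 3. Of 29 acute phase genes, Saa3, the serum amyloid A form of macrophages and other cells outside the hepatocyte, was the only call: it was at 14.3 and 27.8 FPKM on chow and at 74.1, 88.1 and 95.7 FPKM on Western diet (2.03 ± 0.37, adjusted p = 0.0263). The call was lost without either chow library and without Western diet replicate 2 or 3. The list median of 1.02 was 0.32 without Western diet replicate 3, which was highest in 28 of 29 members. Lcn2, the lipocalin-2 gene, was at 9.34 and 52.8 FPKM on chow and at 89.7, 231 and 3574 FPKM on Western diet (4.15 ± 1.49). Saa2 was at 85.8 and 599 against 446, 1051 and 36968 FPKM.

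Some enzymes of detoxification and sulfur metabolism were also among the large falls. Ugt1a9, a glucuronosyltransferase (chromosome 1, 88070779 to 88220002), was at 38.3 and 47.4 FPKM on chow and at 6.39, 10.1 and 9.33 FPKM on Western diet (-2.21 ± 0.26, adjusted p = 0.00505). The Ugt1a genes share exons, and how their fragments were divided is not given in the sources used here. It was the only call among 35 conjugation enzymes, of which 16 were below chow in every Western diet library (45.7%, against 14.9% of all tested genes), with a median of -0.51, or -0.24 without Western diet replicate 3. The call was lost without chow replicate 2. Among them were the glutathione transferases Gstm3 (-2.23 ± 0.58), Gsta1 (-2.21 ± 0.50) and Gstm4 (-1.64 ± 0.38). Ugdh, which makes the sugar donor of glucuronidation, was at 96.2 and 100.5 FPKM on chow and fell (-1.37 ± 0.26, adjusted p = 0.0299) to 46.3, 34.2 and 33.8 FPKM. Among 31 cytochrome P450 and related genes 2 were called lower (0.368% of all tested genes were). They were Cyp2c55 (-2.18 ± 0.29, from 5.82 and 5.54 FPKM to 1.27, 0.154 and 0.24 FPKM) and Cyp3a16 (-1.18 ± 0.26). In every Western diet library 4 of the 31 were above chow and 6 below (12.9% and 19.4%). These shares lay near the 15.7% and 14.9% of all tested genes. Cyp2c55 passed in 21 of the 23 settings and Cyp3a16 in 5. The list median was -0.02 and its sign changed with the settings. Cyp3a11, the abundant Cyp3a of mouse liver, was at 1223 and 921 FPKM on chow and at 322, 201 and 45.5 FPKM on Western diet (-2.88 ± 1.21, adjusted p = 0.32).

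Csad, which makes the taurine used to conjugate bile acids (chromosome 15, 102176997 to 102205052), was at 209 and 144 FPKM on chow and at 27.4, 17.9 and 18.4 FPKM on Western diet (-3.01 ± 0.43, adjusted p = 0.0138). It was the only call of 16 taurine and sulfur amino acid genes. Of the 16, 8 were below chow in every Western diet library (50%, against 14.9% of all tested genes). The call was lost without either chow library, without Western diet replicate 2 and under the code-number block. Gclc, the first enzyme of glutathione synthesis, was at 141 and 131 FPKM on chow and at 69.4, 41.1 and 38.2 FPKM on Western diet (-1.49 ± 0.53), and Cbs differed by -0.94 ± 0.24 (adjusted p = 0.08). Of 24 genes of bile acid synthesis and transport 0 were called (6 at an unadjusted p below 0.05; median -0.16, or 0.11 without Western diet replicate 3). Cyp7a1, the rate-limiting enzyme of bile acid synthesis, was at 12.2 and 15.2 against 30.8, 64.2 and 16.1 FPKM (1.16 ± 1.08), and Abcb11, the bile salt export pump, at 158 and 166 against 114, 48.8 and 94.8 FPKM (-1.0 ± 0.30).

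Other genes that fell came from unrelated families. Gpr110, an adhesion receptor named Adgrf1 in RefSeq (chromosome 17, 43270283 to 43325876), was at 6.64 and 5.7 FPKM on chow and at 0.53, 0.384 and 0.667 FPKM on Western diet (-2.24 ± 0.13, adjusted p = 8.02e-06), and it passed in all 23 settings. It met the filter of 1 FPKM only through the chow libraries, where it was high. Raet1e, a ligand of the NKG2D receptor of NK cells, was at 27.6 and 38.1 against 5.51, 4.89 and 6.14 FPKM (-2.37 ± 0.28, adjusted p = 0.00508). Prss8, a membrane serine protease, fell by 1.83 ± 0.25, Slco2a1, the prostaglandin transporter, by 1.58 ± 0.23 and Agxt, the peroxisomal enzyme that clears glyoxylate, by 1.05 ± 0.23 on the log2 scale. Abca8b, an ABC transporter, Gas2, a cytoskeletal protein, and Tstd1, a sulfurtransferase, fell by 1.38 ± 0.25, 1.33 ± 0.27 and 1.39 ± 0.29. Of the 23 settings, Prss8 passed in 20, Slco2a1 in 18, Abca8b in 17, Gas2 in 10, Tstd1 in 7 and Agxt in 5.

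Fat metabolism showed few calls. Cd36, the fatty acid and oxidised lipoprotein receptor, rose from 15 and 9.52 FPKM to 28, 39.4 and 32.5 FPKM (1.38 ± 0.27, adjusted p = 0.0319), as the only call of 22 lipid droplet and uptake genes. Ucp2, a mitochondrial carrier that macrophages express well, rose from 7.58 and 3.62 FPKM to 14.3, 16 and 20.7 FPKM (1.49 ± 0.31, adjusted p = 0.0446), as the only call of 29 oxidation and PPARalpha target genes. Both calls were lost without chow replicate 2, without Western diet replicate 2 or 3, with equal totals and under the code-number block. Among 22 fatty acid and triglyceride synthesis genes 0 were called (2 at an unadjusted p below 0.05) and the median was -0.11, or 0.085 without Western diet replicate 3 and 0.034 without chow replicate 1. Acly, which makes cytosolic acetyl-CoA, was at 127 and 101 against 87.4, 29.4 and 40.7 FPKM (-1.26 ± 0.38, adjusted p = 0.141), while Thrsp, a lipogenic nuclear protein, was at 86.3 and 79.4 against 612, 431 and 64.1 FPKM (1.62 ± 0.85). Dio1, the deiodinase that activates thyroid hormone (chromosome 4, 107291465 to 107307168), rose from 17.7 and 26.3 FPKM to 83.8, 96.2 and 58 FPKM (1.79 ± 0.24, adjusted p = 0.0102). It was the only call among 16 growth hormone and IGF axis genes. Socs2, a target of growth hormone signalling, was at 10.4 and 12.3 FPKM on chow and at 0.585, 5.09 and 1.93 FPKM on Western diet (-2.02 ± 0.49, adjusted p = 0.0702).

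Clock genes were spread between libraries, and none passed the test. Dbp, a clock output factor, was at 2.05 and 0.894 FPKM on chow and at 43.3, 39.6 and 5.74 FPKM on Western diet (3.25 ± 1.68, adjusted p = 0.429), and Per2 at 1.33 and 1.34 against 7.17, 12.9 and 5.2 FPKM (1.92 ± 0.59). Arntl, the gene of BMAL1, lay the other way, at 6.41 and 9.38 FPKM on chow and at 1.27, 0.755 and 2.76 FPKM on Western diet (-1.84 ± 0.85). Over the 2 clock lists 0 genes were called by limma (2 at an unadjusted p below 0.05, and 2 called with the replicate block). In the Dbp arm 8 of 10 genes (80%, against 15.7% of all tested genes) were above chow in every Western diet library. The mean of the Arntl arm minus that of the Dbp arm was 0.95 and 1.35 (log2) on chow and -1.04, -1.35 and 0.02 on Western diet. Clock position and diet cannot be told apart in these 5 libraries. With that index as a term in the fit 15 genes passed, 14 of them among the 168.

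Of 28 unfolded protein response genes 0 were called (4 at an unadjusted p below 0.05). Their differences were negative in 25, 5 lay below chow in every Western diet library (17.9%, against 14.9% of all tested genes), and the median was -0.33. Hyou1, an endoplasmic reticulum chaperone, was at 62.3 and 61.9 FPKM on chow and at 37.8, 21 and 49.9 FPKM on Western diet (-0.85 ± 0.36). Western diet replicate 3 was the highest Western diet library in 22 of the 28, and the median was -0.59 without it and -0.14 without replicate 2. Broad housekeeping lists lay near 0: the median was 0.03 for 49 cytosolic ribosomal protein genes, of which only Rpl35 was called, and -0.08 for 47 respiratory chain genes, or 0.077 without Western diet replicate 3. The 30 extracellular matrix and stellate cell genes had a median of 0.24 (0.046 without chow replicate 2) and 0 calls (3 at an unadjusted p below 0.05), and 11 hepatocyte markers a median of -0.24 and 0 calls (1 at an unadjusted p below 0.05).

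**Figure D4:**
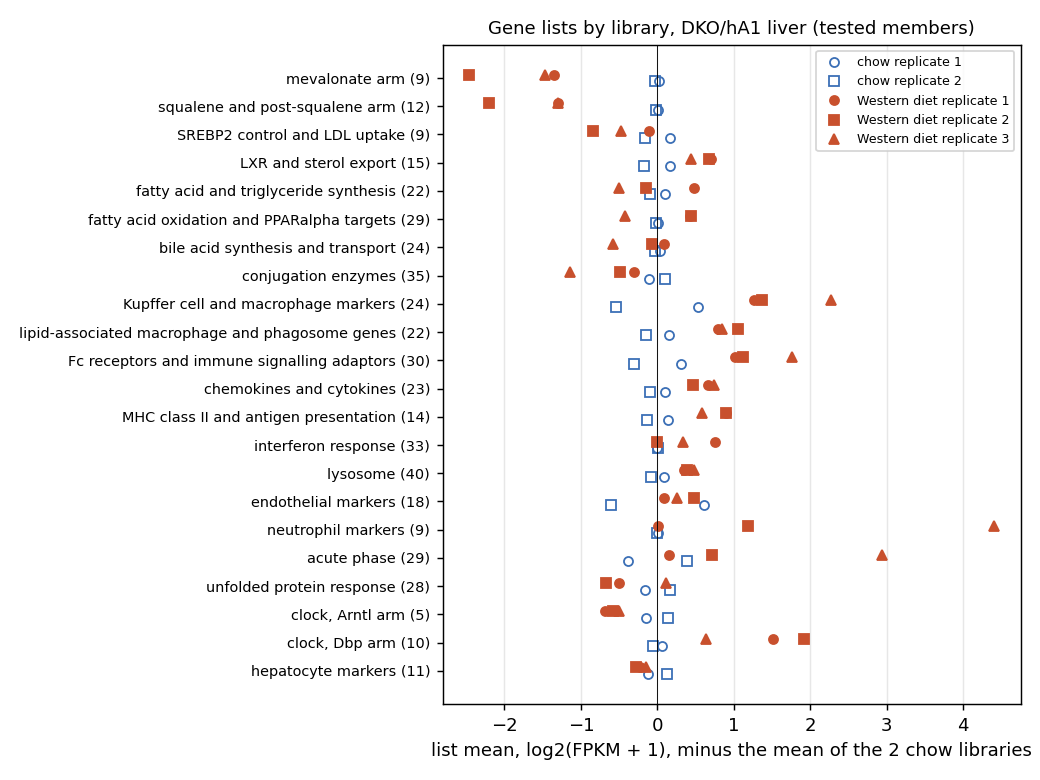
Mean log2(FPKM + 1) of the tested members of 22 gene lists in each DKO/hA1 library, minus the mean of the 2 chow libraries (horizontal axis), with the number of members in brackets. Open blue symbols are chow and filled red symbols Western diet libraries. Both cholesterol synthesis arms are left of chow in all 3 Western diet libraries, and macrophage lists are right of it, while neutrophil and acute phase genes are furthest right in Western diet replicate 3.

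The livers without the transgene gave a second set of libraries in which the genes called above could be read. Some of these libraries share a first code number with DKO/hA1 libraries of the same diet. Of the 127 genes called higher, 124 (97.6%) also had a positive diet difference in the 7 DKO libraries, where 48.6% of all tested genes did. Of the 41 called lower 37 (90.2%) had a negative one. Over all tested genes, 63.9% had the same sign in both genotypes. The median DKO differences of the genes called higher and lower were 0.64 and -0.45. The members were chosen by their size with human APOA1, so their smaller size without it is no result. Cd207 was at 0.206 to 0.318 FPKM in the 4 DKO chow libraries and at 18.5, 4.58 and 4.63 FPKM in the 3 DKO Western diet libraries. Ccl6 was at 7.64 to 9.56 FPKM and at 34.5, 31.3 and 33.6 FPKM. Hmgcs1 was at 54.2 to 166 FPKM on DKO chow and at 25.5, 77.6 and 51.3 FPKM on DKO Western diet, so the 2 diets overlapped there. Csad differed by -0.63 ± 0.36 there, Trem2 differed by 1.21, and the interferon list, at 0.43 with human APOA1, had a median of -0.08 without it, a difference that was not tested for the list.

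The test of the difference itself, the diet by genotype interaction, called 3 genes (0.0269%, limma adjusted p below 0.05), with 565 at an unadjusted p below 0.05. They were Mup5, Rpl35 and Rn45s. Among the genes with the next smallest p, Psph, the last enzyme of serine synthesis, was at 4.7 and 5.2 FPKM on chow and at 2.73, 2.23 and 2.29 FPKM on Western diet with human APOA1, and its difference was -0.81 ± 0.16 there and 0.38 ± 0.13 without it (interaction adjusted p = 0.204). Gpr110 stood at 2.01 to 2.29 FPKM on DKO chow and at 0.119 to 0.263 FPKM on DKO Western diet (-1.40 ± 0.11 without human APOA1, interaction adjusted p = 0.627). Dio1 was at 57.6 to 85.6 FPKM in DKO chow livers, above both DKO/hA1 chow livers, and at 99.5 to 127 FPKM in DKO Western diet livers, a difference of 0.64 ± 0.20. No cholesterol synthesis or macrophage gene was among the 3, which does not show that the effects of diet were equal in the 2 genotypes.

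**Figure D5:**
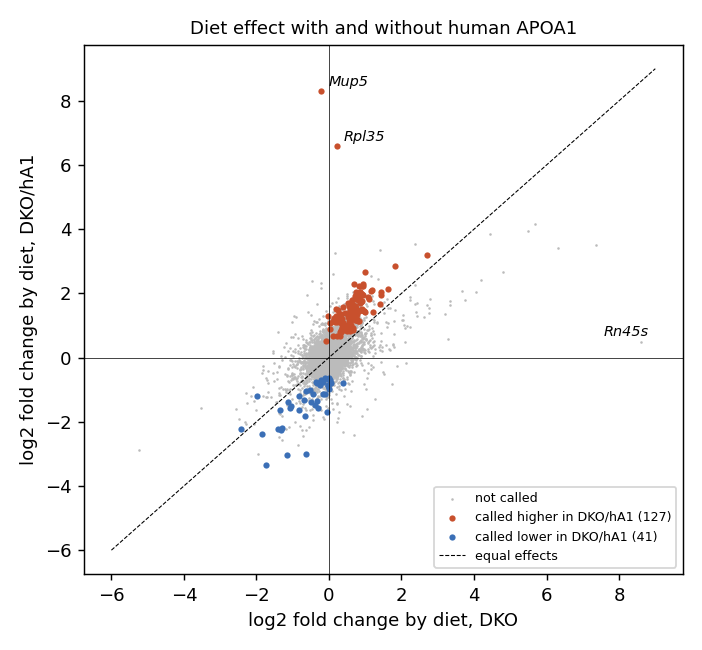
Log2 fold change by diet in DKO/hA1 livers (vertical axis) against that in DKO livers (horizontal axis) for each tested gene, with genes called higher in DKO/hA1 red, genes called lower blue and the dashed line marking equal effects. Most called genes lie in the quadrants of shared direction, and Mup5, Rpl35 and Rn45s lie far from the line.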

How the data were processed

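Liver RNA was sequenced on an Illumina Genome Analyzer IIx. Per the labels' protocols, samples needed an RNA integrity number of at least 7, and each lane held 8 or 9 libraries. The authors deposited FPKM values per gene. The submitters' processing notes name TopHat 1.3.2, Bowtie 0.12.8, SAMtools 0.1.19, Cuffdiff and mm10, and Cuffdiff's version and the gene annotation are not given in the sources used here. FPKM does not keep read counts, so no count model was used. Values were scaled by a trimmed mean (trim 0.3 on ratios and 0.05 on levels), 1 was added and log2 was taken, which understates fold changes of low genes. limma 3.58.1 (R 4.3.3) was fitted to the 4 groups over all 12 libraries (8 residual degrees of freedom, trend and robust variance, two-sided, Benjamini-Hochberg over all 11141 genes), and the procedure was tested on simulated data. Small RNA genes (71) and genes at 0 throughout a DKO/hA1 group (18) were left out. With 3 against 2 libraries an exact permutation test of one gene cannot go below p = 0.1.

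Members and the 44 gene lists were chosen with earlier results of these data known. Genes named were Apoa1 and Apoe, the 15 largest called rises and falls (Mup, Rpl, Rps, Gm, LOC, Rik and pseudogene symbols aside), called list members, up to 4 uncalled members of a list with the largest differences, up to 8 genes with the smallest interaction p, and cholesterol genes with a motif. Ahsg, Clec4f, Cx3cr1, Ccr2, Lipa and Sfpi1 were added after their values were seen. Promoters and positions came from RefSeq, GRCm38.p6. Some members of the lists are counted but not reported here by name.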

Additional observations from a re-analysis of the deposited data

Results flagged for a closer look

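The effect of diet differed between the genotypes in 3 genes by the interaction term of limma. Rpl35, a ribosomal protein gene, was at 1.3 and 0.284 FPKM in the DKO/hA1 chow libraries and at 164, 147 and 186 FPKM in the DKO/hA1 Western diet libraries, against 126 to 191 FPKM in all 7 DKO libraries (interaction 6.37 ± 0.28 on the log2 scale, adjusted p = 6.392e-07). Mup5, a major urinary protein gene, was at 2.7 and 2.84 FPKM on DKO/hA1 chow and at 2367, 2176 and 330 FPKM on DKO/hA1 Western diet, against 981 to 3048 FPKM in DKO libraries (8.52 ± 1.01, adjusted p = 0.01916). Rn45s, the ribosomal RNA precursor, was listed at 0 in all 4 DKO chow libraries and was at 166 to 280 FPKM in the DKO/hA1 libraries and at 590, 190 and 580 FPKM in the DKO Western diet libraries (-8.11 ± 0.49, adjusted p = 1.848e-05), so its fitted value is no fold. All 3 belong to families or repeats with near-identical copies, so their levels are uncertain. The part of read assignment in these values was not tested.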

How the results depend on the processing

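The number of genes called for diet (168) fell to 110 with a filter at 5 FPKM, 19 with the first number of the label codes as a random block, 15 with the clock index as a term and 13 in the 5 DKO/hA1 libraries alone; the cause was not tested. Leaving out 1 library gave 7 (DKO/hA1 chow replicate 2) to 224 (DKO chow replicate 2), and also 27 (DKO/hA1 Western diet replicate 2), 97 (its replicate 3), 97 (DKO chow replicate 1) and 77 (DKO chow replicate 3). The other settings gave 127 to 177. The replicate block gave 129, 93 of them among the 168. Deviations from the group mean correlated at -0.0593 and -0.0455 between same-numbered DKO/hA1 libraries of the 2 diets. With 2 chow libraries their deviations mirror each other, so these values cannot settle whether the numbers pair libraries. The interaction count (3) was 7 with no level filter, 3 with the replicate block and 2 to 9 without 1 library, the highest without DKO/hA1 Western diet replicate 3. All 168 genes kept their sign in the 23 settings, as genes without overlap between diets nearly must. Ccl6, Gpr110, Mup5 and Rpl35 passed in each setting. The median of the cytochrome P450 list (-0.02) turned to 0.11 with the 5 FPKM filter, 0.015 with no filter, 0.11 with the replicate block, and ranged from -0.061 to 0.18 when 1 library was left out (0.015 and 0.12 without the first and the other DKO/hA1 chow library, 0.18 without the last Western diet library). Without DKO/hA1 Western diet replicate 3 the medians of the bile acid (0.11), respiratory chain (0.077), fatty acid synthesis (0.085) and apolipoprotein (0.15) lists also turned positive. Read depth is unknown. Both DKO/hA1 chow libraries share a first code number, also carried by DKO chow replicate 3, whose meaning the labels do not give.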
